A study of Rattus norvegicus with 6 samples.

Results

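The genes described here encode integrin subunits in cultured stem cells from rat skeletal muscle. They were chosen by name from a list of 10 subunits: Itga1, Itga5, Itga6, Itga7, Itga8, Itga11, Itgav, Itgb1, Itgb3 and Itgb5. A probe set (several short oligonucleotides summarised to 1 value) was a member when the platform annotation gave it 1 of these symbols. Of the 10 genes, 8 had an annotated probe set, 1 each, among 18166 named genes on the Affymetrix Rat Gene 2.0 ST array, and Itgav and Itgb3 were not analysed here. All 8 passed the filter on signal, a mean log2 signal over the libraries no lower than 6.74, the median of every value in the table, as did 11540 of the 18166 genes.

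The series holds 6 libraries of cells obtained from male rats by a plating method, with 1 array each. The cholesterol library came from cells given 100 mg/dl cholesterol with cyclodextrin as carrier. For the fatty acid library the labels name sodium palmitate, without a dose, so the lipids cannot be set against each other at matched doses. The other libraries are titled OZ serum, LZ serum, high glucose control and low glucose control, and strain, age, time of exposure and the make-up of the media are not given in the labels. It is likewise not stated which control belongs to which lipid, or whether a control held cyclodextrin, so both were used as the comparison for either lipid. With 1 array per group no value has an error and no test was possible: every difference describes these libraries, and the number of arrays limits the precision.

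Integrins are receptors of the cell surface made of an alpha subunit paired with a beta subunit. They bind proteins of the extracellular matrix outside the cell and connect through talin, kindlin and other adaptors to actin inside it. The alpha subunit largely sets the ligand. Itga8 and Itga5 pair with Itgb1 and recognise the Arg-Gly-Asp motif of ligands such as nephronectin and fibronectin. Itga1 and Itga11 pair with Itgb1 as collagen receptors. Itga6 and Itga7 form laminin receptors with Itgb1, and the Itga7 form anchors muscle fibres to their basement membrane. Itgb5 pairs with Itgav to bind vitronectin and to release active TGF-beta from its latent complex.

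The alpha subunits differed between libraries far more than Itgb1, their shared partner. In the fatty acid library 3 of the 8 measured subunits, Itga8, Itga11 and Itga1, were lower by 2-fold or more than in either control, and 0 were higher by that much. Of all 11540 genes, 2.01% were at least 2-fold lower and 0.641% at least 2-fold higher by the same rule, which takes the difference nearer to 0 when those from both controls share a sign, and 0 otherwise. In the cholesterol library 1 of 8 subunits, Itga8, was at least 2-fold lower, where 0.806% of all genes were, and 0 were at least 2-fold higher, against 0.381% of all genes. In a culture measured as a whole, fewer cells of a kind and less RNA per cell cannot be told apart.

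**Figure D1:**
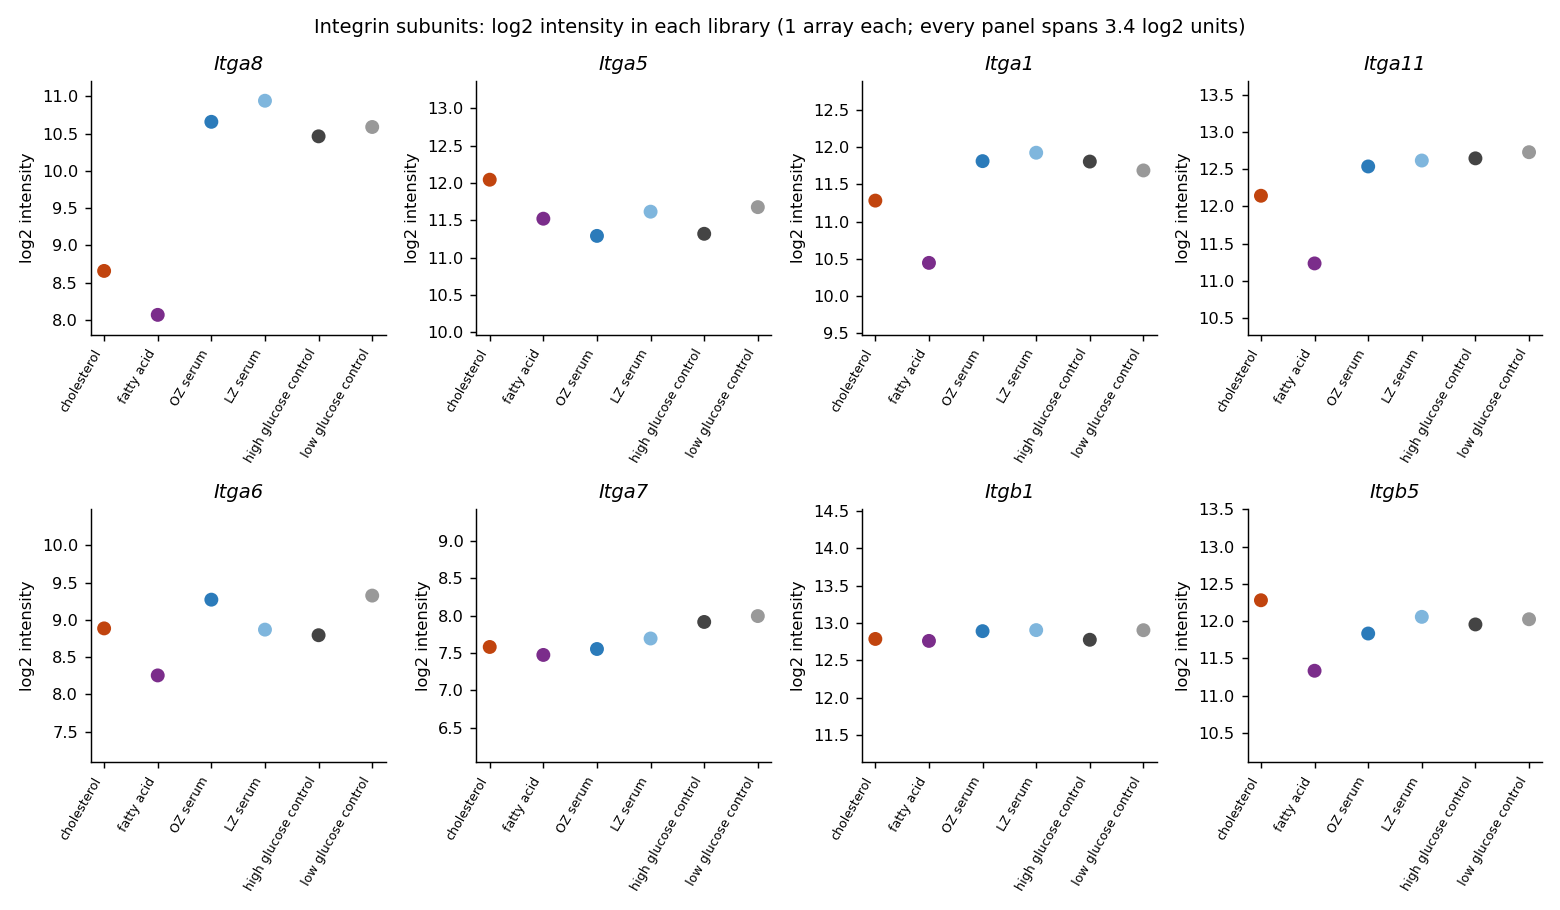
Log2 intensity (vertical axis) of the 8 measured integrin subunits in each of the 6 libraries (horizontal axis), 1 point per array, with every panel spanning the same number of log2 units. Itga8 is low in both lipid libraries, at 8.66 and 8.07, Itga1 and Itga11 are lowest with fatty acid, and Itgb1 stays between 12.76 and 12.91.

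The 250 bases before the transcription start are shown for these 3 subunits, which were low together in the fatty acid library, and for Itgb1, whose signal was nearly flat. They come from RefSeq, build GRCr8, and 6 of the 8 subunits had an entry. The windows are chr17:80410634-80410883 on the minus strand for Itga8, chr8:72041182-72041431 on the plus strand for Itga11, chr2:48545284-48545533 on the minus strand for Itga1 and chr19:73602027-73602276 on the plus strand for Itgb1. Each is written 5′ to 3′ and ends at the base before the start, with motif matches in capitals.
Itga8: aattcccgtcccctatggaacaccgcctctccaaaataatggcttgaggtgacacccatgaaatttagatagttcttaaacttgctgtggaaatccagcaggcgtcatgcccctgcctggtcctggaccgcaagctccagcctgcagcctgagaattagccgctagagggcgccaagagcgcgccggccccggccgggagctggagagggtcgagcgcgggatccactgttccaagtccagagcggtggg
Itga11: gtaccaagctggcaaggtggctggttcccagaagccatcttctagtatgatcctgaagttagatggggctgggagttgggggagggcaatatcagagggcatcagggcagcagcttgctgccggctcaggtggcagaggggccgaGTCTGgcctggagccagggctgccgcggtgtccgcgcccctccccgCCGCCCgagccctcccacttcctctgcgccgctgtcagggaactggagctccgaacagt
Itga1: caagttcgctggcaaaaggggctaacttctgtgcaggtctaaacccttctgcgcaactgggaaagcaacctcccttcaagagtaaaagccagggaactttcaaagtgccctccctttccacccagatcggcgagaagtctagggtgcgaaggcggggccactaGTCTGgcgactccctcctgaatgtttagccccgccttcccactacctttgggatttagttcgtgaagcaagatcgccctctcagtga
Itgb1: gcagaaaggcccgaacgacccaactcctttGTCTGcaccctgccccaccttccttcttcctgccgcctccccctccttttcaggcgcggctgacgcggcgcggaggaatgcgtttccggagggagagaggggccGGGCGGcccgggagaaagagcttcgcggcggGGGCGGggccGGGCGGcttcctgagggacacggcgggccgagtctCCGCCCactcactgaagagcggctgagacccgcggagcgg
The motifs, searched on both strands and chosen after the values were seen, were the GC box GGGCGG, the TATA box TATAAA, the CCAAT box, the AP-1 motif TGANTCA, the SMAD motif CAGAC and the CArG box of serum response factor. GGGCGG was found 4 times before Itgb1, 1 time before Itga11 and in neither other window, and 30.5% of the 33469 promoters in the RefSeq table hold it. CAGAC, seen here as its reverse complement GTCTG, was found 1 time each before Itga11, Itga1 and Itgb1, and 42.9% of promoters hold it. No match to the TATA box, CCAAT box, AP-1 motif or CArG box was found in these windows, where 12.9%, 34%, 6.34% and 1.5% of all promoters hold them. GC content was 59.6% before Itga8, 65.2% before Itga11, 54.4% before Itga1 and 71.2% before Itgb1, against a median of 51.2% over all promoters. The window of Itga8, the subunit with the largest differences, thus held none of the 6 motifs, and those of Itga11 and Itga1 shared only CAGAC.

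Among the subunits that recognise Arg-Gly-Asp, Itga8 (probe set 17720914) is best known from kidney development and from smooth muscle and myofibroblasts. Its intensity was 404 in the cholesterol and 269 in the fatty acid library, against 1412 and 1540 in the high and low glucose controls. It was 1616 with OZ serum and 1966 with LZ serum. Both lipid libraries thus lay below all 4 others, and the gap to the nearest of these was wider than the whole spread among them. The smaller difference from the controls was -1.80 (log2), or 3.49-fold lower, with cholesterol and -2.39, or 5.26-fold lower, with fatty acid. Counted from the most negative, Itga8 was in place 13 of the 11540 genes in either comparison. The 2 comparisons share their controls, so these places are not independent of each other. With cholesterol (log2 8.66) and fatty acid (8.07), the Itga8 signal lay inside the range of the array's background probe sets, whose highest values were 9.33 and 9.67 on those arrays, so the size of these folds is less certain.

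Itga5 (probe set 17841647), the alpha subunit of the classical fibronectin receptor, did not share this pattern. Its log2 signal was 12.04 in the cholesterol library, the highest of the 6, and 11.52 in the fatty acid library, against 11.32 and 11.68 in the high and low glucose controls. With cholesterol it lay 0.73 and 0.37 above the controls, less than 2-fold. With fatty acid it lay between them. The controls themselves were 0.36 apart for this gene, about as much as the smaller of its differences with cholesterol. Itga8 and Itga5 had the least alike profiles of all 28 pairs of members, with a root mean square difference of 1.24 between their mean-centred log2 values over the 6 libraries. This measure is not scaled for range, and Itga8 had the widest range of the members (2.87 log2). Itgb1, which was nearly flat, was also 1.06 from Itga8.

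The collagen-binding subunits shared a pattern. Itga11 (probe set 17844887), a receptor for fibrillar collagen found on fibroblasts and mesenchymal cells, had log2 signals of 12.14 with cholesterol and 11.24 with fatty acid, against 12.65 and 12.73 in the high and low glucose controls. Itga1 (probe set 17745373), which also binds basement membrane collagen, had 11.28 with cholesterol and 10.45 with fatty acid, against 11.80 and 11.69. For both genes the fatty acid library was lowest and the cholesterol library next, below both serum libraries, which lay from 11.81 to 11.92 for Itga1 and from 12.54 to 12.62 for Itga11. Itga11 was 2.66-fold lower with fatty acid (-1.41 log2, place 88 of 11540 from the negative end). Itga1 was 2.36-fold lower (-1.24, place 135). With cholesterol the smaller differences were -0.50 for Itga11 and -0.40 for Itga1, short of 2-fold, in places 311 and 431. The controls differed by 0.12 for Itga1 and by -0.08 for Itga11 (high minus low glucose), so all of these differences exceeded the gap between the controls. Of the 28 pairs of members, these 2 had the most alike profiles (root mean square difference 0.11).

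**Figure D2:**
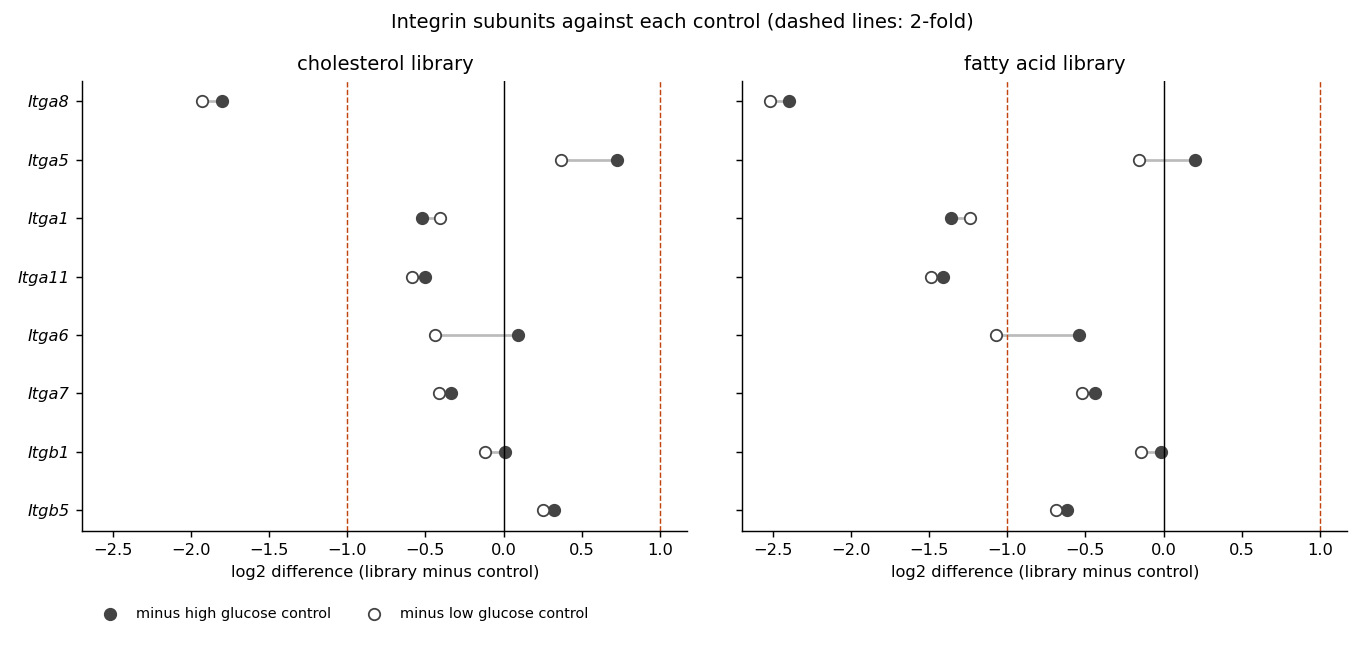
Log2 difference (horizontal axis) of the cholesterol library, left, and the fatty acid library, right, from the high glucose control (filled points) and the low glucose control (open points), for each integrin subunit (rows). Itga8 lies beyond the dashed 2-fold line in both panels, Itga11 and Itga1 with fatty acid, and Itga6 only against the low glucose control with fatty acid.

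The laminin-binding subunits gave smaller differences. Itga6 (probe set 17762893) had log2 signals of 8.89 with cholesterol and 8.26 with fatty acid, against 8.79 and 9.33 in the high and low glucose controls. The fatty acid library was below both controls, by 0.54 and 1.07, so that 2-fold was reached against the low glucose control alone. The cholesterol library lay between the controls. Itga7 (probe set 17825808), named in muscle for its role at the fibre surface, had 7.58 with cholesterol and 7.47 with fatty acid, against 7.92 in the high glucose control. It lay 0.08 higher in the low glucose control than there, so the cholesterol library differed from the controls by -0.34 and -0.41, and the fatty acid library by -0.44 and -0.52. The serum libraries were low as well, at 7.55 (OZ) and 7.69 (LZ), and Itga7 was below both controls in all 4 of the lipid and serum libraries. Both genes lay inside the range of the background probe sets in every library, which limits what their differences can show.

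Of the beta subunits, Itgb1 (probe set 17734569), the partner of all 6 alpha subunits measured here, was nearly flat. Its log2 signal was 12.79 with cholesterol and 12.76 with fatty acid, against 12.78 and 12.90 in the high and low glucose controls, and 12.89 and 12.91 with OZ and LZ serum. The highest library was 1.11-fold above the lowest. Itgb5 (probe set 17669524) differed in opposite directions with the lipids. It was 12.28 with cholesterol, above all other libraries, and 11.34 with fatty acid, below all others, against 11.96 and 12.03 in the controls. The smaller differences from the controls were 0.25 with cholesterol and -0.62 with fatty acid, both short of 2-fold and both larger than the -0.07 between the controls (high minus low glucose).

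Taken by count, 7 of 8 subunits were lower with fatty acid than in both controls by any amount, where 39.7% of all genes were. The exception was Itga5, which lay between the controls, and 0 members were higher than both, where 40.4% of all genes were. Among the lower ones, Itgb1 differed by only -0.02, which became 0 after quantile normalization and cyclic loess. The median over the 8 was -0.58 against the high and -0.88 against the low glucose control, beside 0.01 and -0.00 over all genes. With cholesterol, 4 of 8 were lower than both controls (33.6% of all genes) and 2 were higher (36.3%), namely Itga5 and Itgb5. The medians were -0.16 and -0.41, beside 0.01 and 0.00 over all genes.

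**Figure D3:**
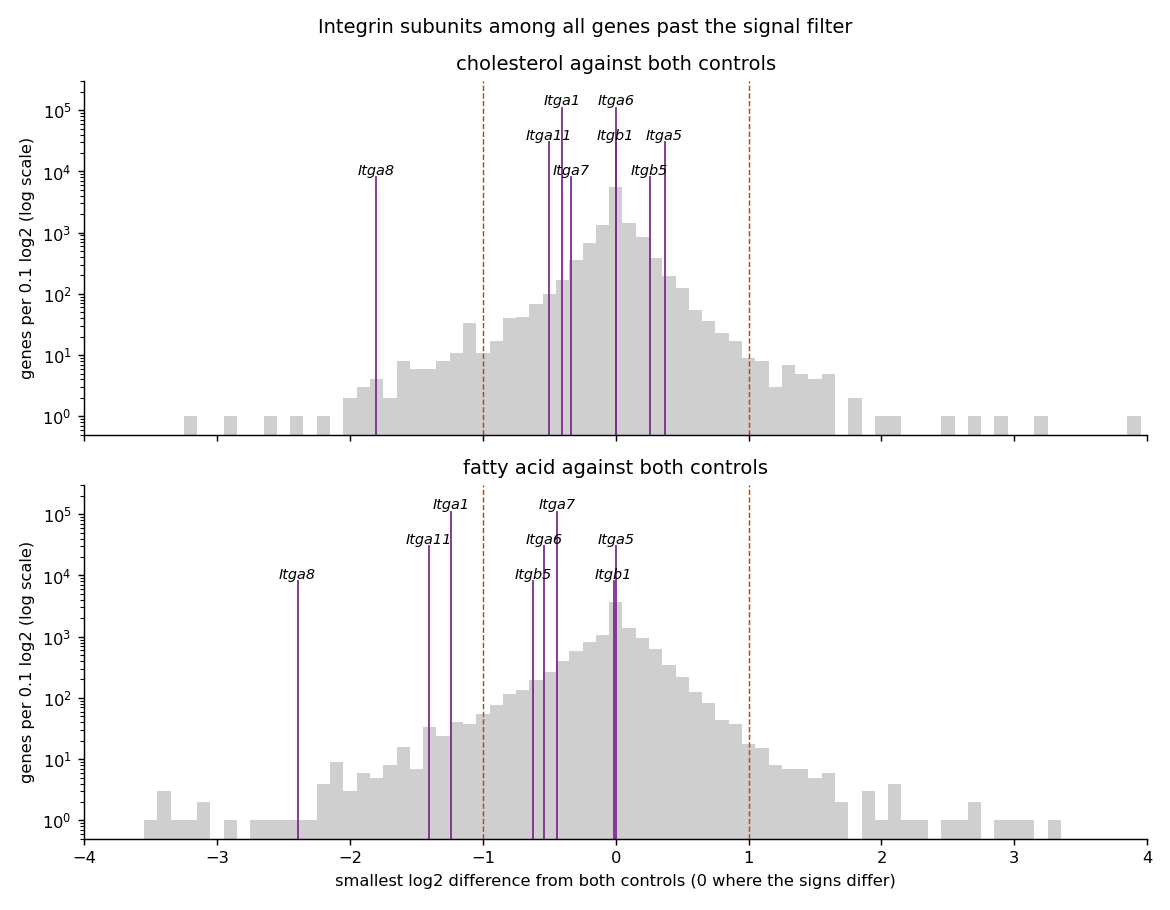
Number of genes per 0.1 log2 (vertical axis, log scale) by their smallest log2 difference from both controls (horizontal axis), for cholesterol, top, and fatty acid, bottom, over the 11540 genes past the signal filter. Lines mark the integrin subunits: Itga8 stands in the lower tail of both panels, at -1.80 and -2.39.

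Set directly against the fatty acid library, the cholesterol library was higher in all 8 subunits, where 51.9% of all genes were higher and 48% lower. None reached 2-fold, beside 1.92% of all genes higher and 0.901% lower by that much. The differences were 0.95 for Itgb5, 0.91 for Itga11, 0.84 for Itga1, 0.63 for Itga6, 0.59 for Itga8, 0.52 for Itga5, 0.11 for Itga7 and 0.03 for Itgb1. Their median was 0.61, beside 0.01 over all genes, and the sign of the Itgb1 difference turned after quantile normalization and cyclic loess. Itgb5 and both collagen-binding subunits were thus farthest apart between the lipids, while Itga8, low with both, was in the middle of the order.

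The serum libraries were close to the controls. None of the 8 subunits was at least 2-fold different in both serum libraries from both controls, and 0% of all genes were. Itga8 was above both controls with either serum, by 0.07 at the least and 0.48 at the most, and Itga7 was below, by 0.22 to 0.44. By any amount 2 subunits were above both controls with both sera (8.83% of all genes) and 2 below (19.7%), the others being Itga1, above by 0.01 at the least with a sign that turned on median centring, and Itga11, below by 0.03. The OZ serum library was lower than the LZ serum library in 7 of 8 subunits, as were 58.1% of all genes, with 41.9% higher. Again none reached 2-fold, beside 0.026% of all genes. The exception was Itga6, higher with OZ serum by 0.40 (9.27 against 8.87), and the largest negative differences were -0.32 for Itga5 and -0.28 for Itga8. For Itga6 and Itga5 the controls were farther apart than the sera (-0.53 and -0.36, high minus low glucose), while for Itga8 they were closer (-0.13).

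The high glucose control was lower than the low glucose control in 7 of 8 subunits, by any amount, where 51.1% of all genes were lower and 48.9% higher. None was at least 2-fold different, beside 0.251% of all genes higher and 0.104% lower. The largest differences were -0.53 for Itga6 (8.79 against 9.33) and -0.36 for Itga5, and the other 6 subunits were within 0.13. Over all genes past the filter, the median absolute difference between the controls was 0.14. The strong differences of Itga8, Itga1 and Itga11 in the lipid libraries therefore concern genes on which the controls lay close together.

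Genes with the most similar profiles were sought for the 4 members whose highest and lowest libraries were at least 2-fold apart. Likeness was the root mean square difference of mean-centred log2 values over the 6 libraries, and with 6 points near matches are common among 11540 genes. Closest to Itga11 were Mical1, an actin-oxidising enzyme (0.05), Nid1, the basement membrane protein nidogen (0.06), the Wnt receptor Fzd2 (0.08), Prkcel1 (0.08) and the sorting receptor Sort1 (0.08). Closest to Itga1 were Clybl (0.06), the calcium channel subunit Cacna2d1 (0.07), Dok6 (0.08), the transporter Abca9 (0.08) and Pgm5, a protein of adherens junctions (0.09). Itga6 was closest to Pttg1, or securin (0.07), the histone gene H2ac4 (0.08), Tmem258l5 (0.08), the centrosomal Cep128 (0.09) and the mitotic kinesin Kif20a (0.09). None of the genes searched, which left out members and provisional symbols, came as near to Itga8. The measure is not scaled for range, and Itga8 had a range of 2.87 log2, beside 1.07 for Itga6, 1.48 for Itga1 and 1.49 for Itga11. Nearest to Itga8 were Olfml2b (0.24), the potassium channel Kcnk2 (0.27), Palmd (0.28), the cationic amino acid transporter Slc7a3 (0.29) and the growth factor Bmp6 (0.29).

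The rest of the integrin family was represented by 15 of 16 further subunits, of which 7 passed the signal filter. Itga2 (probe set 17745339), another collagen receptor subunit, ran against Itga1 and Itga11. Its log2 signal was 8.60 with cholesterol and 7.56 with fatty acid, against 7.05 and 7.26 in the controls. It was 2.52-fold higher than either control with cholesterol at the least (1.33 log2) and 0.30 higher with fatty acid, and it was the only one of the 7 at 2-fold against both controls in either lipid library. In all 6 libraries its signal lay below the highest background probe set (9.33 to 9.78), as that of Itga4 did with both lipids, so the size of these differences is less certain. Itga4, a receptor subunit for fibronectin and Vcam1, was 8.80 with cholesterol and 8.78 with fatty acid, against 9.63 and 9.72 in the controls, with 10.47 and 10.37 in OZ and LZ serum. It was thus lower with both lipids, with smaller differences of -0.83 and -0.85, and higher with both sera, by 0.65 at the least. That was the most positive serum value among all 11540 genes. Itga3, a laminin receptor subunit, was 10.15 with cholesterol and 10.44 with fatty acid, against 9.10 and 9.90. The controls were 0.80 apart for Itga3, more than its smaller difference in either lipid library. Itga9, at 7.58 with cholesterol and 6.99 with fatty acid against 7.93 and 7.31, was below both controls only with fatty acid, by 0.32 at the least. Itgal and Itgb2, known from leukocytes, and Itgb4, known from epithelium, stayed between 6.83 and 7.19 in every library. The other 8, among them the leukocyte subunits Itgam, Itgax and Itgad, did not pass the filter and lay between 5.37 and 7.06.

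**Figure D4:**
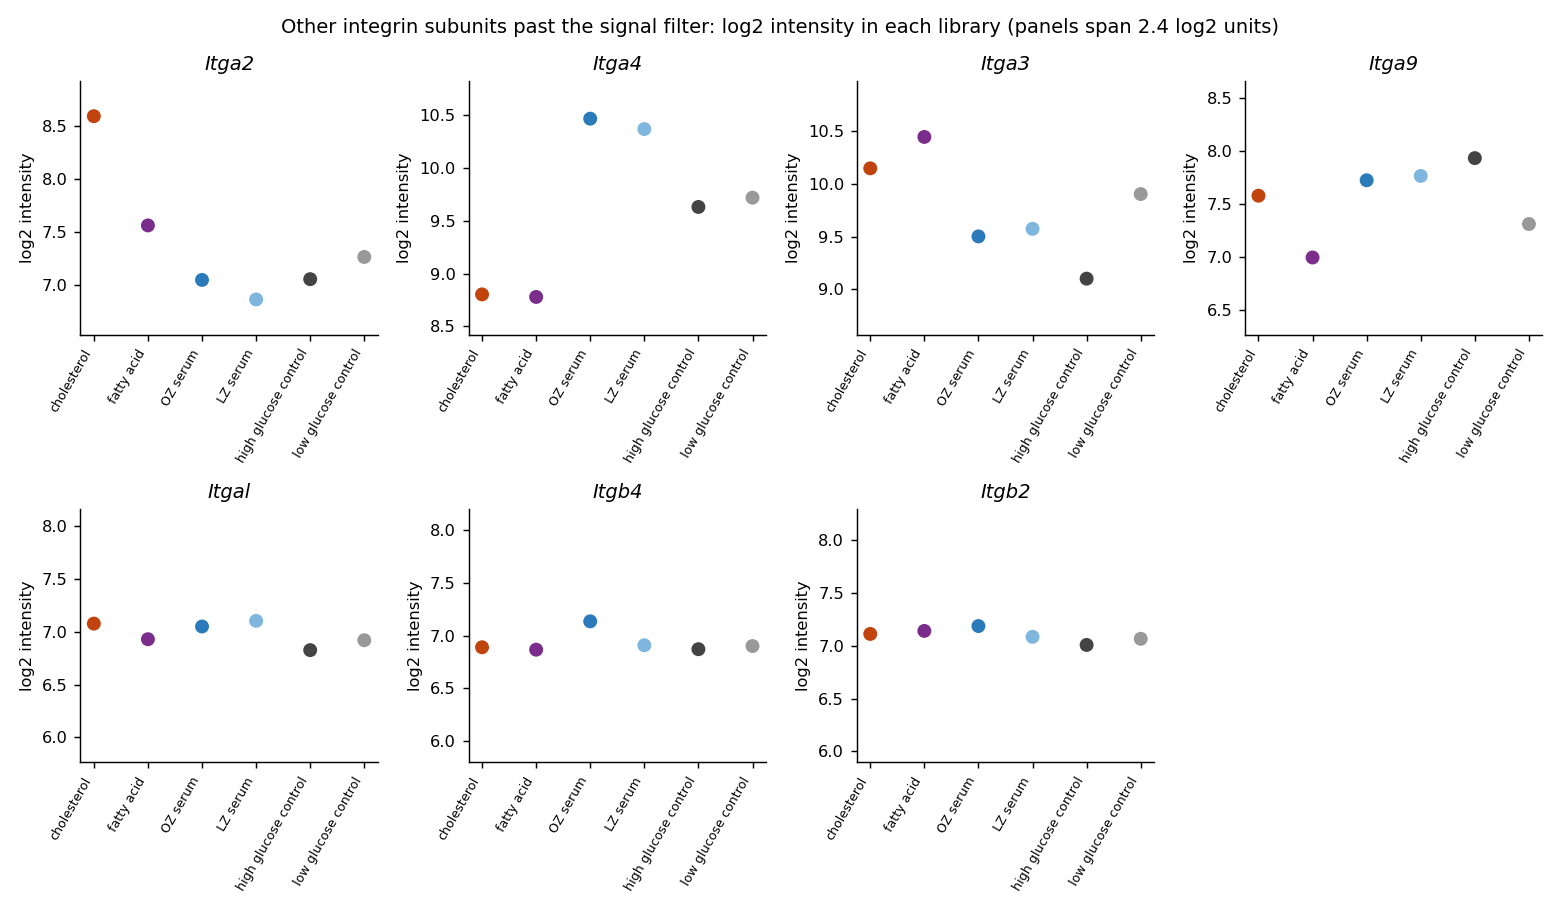
Log2 intensity (vertical axis) in each of the 6 libraries (horizontal axis) of the 7 further integrin subunits past the signal filter, 1 point per array. Itga2 is highest with cholesterol, at 8.60, and Itga4 is low with both lipids, at 8.80 and 8.78, and high with both sera, at 10.47 and 10.37.

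Ligands of these receptors were lower with fatty acid in most cases. Of 12 measured collagen chains, 11 were lower than both controls (39.7% of all genes) and 4 at least 2-fold lower (2.01% of all genes): Col4a1 (-1.53), Col11a1 (-1.39), Col4a2 (-1.07) and Col3a1 (-1.05). With cholesterol, 11 of 12 were lower (33.6% of all genes) and 0 reached 2-fold (0.806%). The controls also differed, with 11 of 12 chains lower in high than in low glucose (51.1% of all genes). The median was -0.46, against cholesterol medians of -0.20 and -0.65 from the high and low glucose controls. Set directly against fatty acid, cholesterol was higher in 11 of 12 chains (51.9% of all genes). The same order was seen for all 8 integrin members, Itga1 and Itga11 among them. Of 6 measured laminin chains, 4 were lower with fatty acid (39.7% of all genes) and 2 higher (40.4%), the higher ones being Lama3 (0.14) and Lamc3 (0.04). The most negative was Lama4 at -2.08, which was also lower with cholesterol (-1.06). With fatty acid the Lama4 signal lay inside the range of the background probe sets, so the size of that difference is less certain. Among 14 measured ligands of the subunits that recognise Arg-Gly-Asp, 13 were lower with fatty acid (39.7% of all genes) and 3 at least 2-fold (2.01%): Ccn3 (-1.59), the fibrillin Fbn1 (-1.06) and Tgfbi (-1.05). The fibronectin gene Fn1 stayed between 13.56 and 13.70 in all libraries, as flat as Itgb1. With cholesterol, 7 of the 14 were lower and 3 higher (33.6% and 36.3% of all genes), with 0 at 2-fold. Tgfbi was also over 2-fold apart between the controls (-1.14, high minus low glucose).

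Inside the cell, none of the 17 measured adaptors that link integrins to actin was at least 2-fold different from both controls in either lipid library. Of all genes, 2.01% were at least 2-fold lower and 0.641% higher with fatty acid, and 0.806% and 0.381% with cholesterol. By any amount, 14 adaptors were lower and 2 higher with fatty acid (39.7% and 40.4% of all genes). With cholesterol 8 were lower and 5 higher, not far from the 33.6% and 36.3% over all genes. Their largest differences with fatty acid were -0.91 for Lims2, -0.80 for Kank2 and -0.65 for talin, Tln1, and with cholesterol 0.52 for Parvb and -0.50 for Tns3. The kindlin Fermt2 stayed between 11.95 and 12.10 and the integrin-linked kinase Ilk between 11.91 and 12.13. In focal adhesion signalling, 5 of 13 genes were lower and 3 higher with fatty acid, a share of lower genes near the 39.7% over all genes, and the largest difference was -0.72, in Nedd9. Of 6 measured integrin inhibitors and traffic genes, 5 were higher than both controls with cholesterol (36.3% of all genes), none at 2-fold.

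Markers were read to see which cells the cultures held. Mesenchymal genes were mostly strong, with Vim from 13.72 to 13.79 and Thy1 from 13.17 to 13.51. Of the same list, Vcam1 did not pass the filter and Cd34 had a mean of only 7.14. The myogenic regulators Myod1, Myf5 and Myog and the satellite cell gene Cdh15 did not pass the filter. Pax7 (6.90 to 7.26), Des (mean 6.92) and Msc (mean 6.82) lay near the median of all values. Pax3 had a mean of 8.18, and Ncam1 ran from 11.37 to 12.43. Summed intensity of 9 myogenic markers was 5487 with cholesterol and 3573 with fatty acid, against 5890 and 6522 in the controls. Most of that sum was Ncam1. Of the 5 myogenic markers past the filter, 3 were lower and 2 higher with fatty acid (39.7% and 40.4% of all genes). Their medians were -0.13 and -0.28. The sum of 8 mesenchymal markers was 39297 with cholesterol and 36377 with fatty acid, against 44185 and 39989. Of the 7 mesenchymal markers past the filter, 5 were lower with fatty acid (39.7% of all genes) and 0 higher (40.4%). Vim and Dcn were neither, and Vcam1, short of the filter, was higher (0.52). Ncam1 (-0.90), Nt5e (-0.86) and Pdgfrb (-0.84) were among the lower markers of both lists, and the controls were 0.53 apart for Nt5e. Of 8 leukocyte markers, 4 passed the filter, and the sum was 1942 with cholesterol and 979 with fatty acid, against 1340 and 1092. The sum followed Cd14, at 0.51 with cholesterol and -0.60 with fatty acid, a gene on which the controls were themselves 0.60 apart. By any amount, 3 of the 4 were higher with fatty acid (40.4% of all genes) and 4 of 4 with cholesterol (36.3%). The smaller differences of Itgb2 and Cd79b lay only between 0.05 and 0.12 with either lipid. Cd68 was higher with cholesterol (1.56), while the leukocyte gene Ptprc stayed between 5.42 and 5.59. The lists for Schwann cells (2 of 3 past the filter), keratinocytes (2 of 5) and endothelium (0 of 4) had 0 genes at 2-fold in either lipid library. Of all genes, 2.01% were at least 2-fold lower and 0.641% higher with fatty acid, and 0.806% and 0.381% with cholesterol. The part of the marker shifts in the integrin differences was not tested.

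The arrays had 36685 probe sets, with a median intensity between 104.6 and 109.2. The fatty acid array stood apart in its 18 hybridisation control probe sets, which read labelled bacterial and phage transcripts added to each hybridisation. All 18 were higher than on either control array, with medians of 0.50 and 0.72, and on the cholesterol array the medians were -0.35 and -0.11. Their part in the fatty acid differences was not tested.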

How the data were processed

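Gene expression was measured in 6 libraries with 1 Affymetrix Rat Gene 2.0 ST array each, grouped by sample title. The authors deposited 1 linear intensity per probe set, from 3.63 to 18205. Per the labels' protocols the arrays were run by a core laboratory. How probe sets were summarised or normalized is not given in the sources used here, and nearly equal medians (104.6 to 109.2) led to the values being taken as scaled to each other. Depth in the sense of counts does not apply.

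Log2 of the deposited values was taken with no offset. Gene names came from the platform annotation, which gives 1 gene for 18511, several for 575 and none for 17599, and only those with 1 gene were used. Symbols were checked by Entrez identifier against RefSeq (GRCr8), which changed 0 of them. Older symbols in the gene lists were updated through the synonyms given in RefSeq. A gene with several probe sets (291 genes, no integrin member) took the one with the highest mean. Genes with a mean log2 signal of at least 6.74, the median of all values, were kept.

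Against several libraries a gene takes the log2 difference nearest to 0 where all share a sign, else 0, called at 2-fold. This rule was tested on simulated data. The 6 comparisons, 16 gene lists, markers and members were chosen with earlier results of these data known. Text names all measured members, other integrin subunits past the filter, from each list up to 4 genes with the largest differences and those at 2-fold, and the 5 nearest profiles of members with a 2-fold range, passing over provisional symbols. Genes named for a flat signal, the markers quoted by level and the motifs were chosen after their values were seen. Alternatives were quantile normalization, median centring, cyclic loess, no filter, a stricter filter (at least 1 array reaching log2 8.68, the 75th percentile), the mean of probe sets, 1.5-fold, an offset of 32, and each library or the mean of libraries alone. Python 3.11.15, numpy 2.4.6, pandas 2.3.3, matplotlib 3.10.9, R 4.3.3 and limma 3.58.1 were used.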

Additional observations from a re-analysis of the deposited data

Results flagged for a closer look

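The hybridisation control probe sets, which no comparison used, were higher on the fatty acid array than on the nearer control array, the high glucose control, by a median of 0.50 (log2), with all 18 probe sets higher and a range of 0.17 to 0.71. Against the low glucose control the median was 0.72, again with all 18 higher. The controls differed from each other by a median of 0.20 (high minus low glucose), and the OZ from the LZ serum array by -0.07. Whether this bears on Itga8, Itga1 and Itga11 in the fatty acid library was not tested.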

How the results depend on the processing

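Itga8 with cholesterol, and Itga8, Itga1 and Itga11 with fatty acid, were at least 2-fold lower under every alternative run for those comparisons. Several of these alternatives, namely no filter, 1.5-fold and means of probe sets, could not have undone the calls. Nor could either control alone or the mean of both controls, since the rule already takes the smaller difference. Of 57 alternative counts of members at 2-fold, 56 equalled the reported count or lay within 1.5 times of it. The exception was cholesterol against fatty acid, with 0 members at 2-fold and 5 at 1.5-fold (Itga1, Itga6, Itga8, Itga11 and Itgb5). With the low glucose control alone, Itga6 joined the 3 members low with fatty acid. No filter and means of probe sets could not move a member or a member count, since all 8 passed the filter with 1 probe set each. Under quantile normalization, median centring, cyclic loess, means of probe sets and the offset, all 240 values of single members and all 55 medians over the members moved by less than 0.14, the median absolute difference between the controls. The choice of control moved some by more: with fatty acid Itga6 was -0.54 against the high and -1.07 against the low glucose control, and the median over members -0.58 and -0.88. Counts over all genes moved by more than 1.5 times in some settings. Cholesterol against both controls gave 137 genes, but 232 against the high and 216 against the low glucose control alone, and 392 at 1.5-fold. Fatty acid gave 306, but 472 against the high glucose control alone and 1044 at 1.5-fold. At 1.5-fold, cholesterol against fatty acid gave 1354 in place of 325, and high against low glucose 312 in place of 41. OZ against LZ serum gave 3 genes, 15 without a filter, 30 at 1.5-fold, and 1 with the stricter filter or the offset. Serum against controls gave 0, but 2 at 1.5-fold or with OZ serum alone and 4 with means of libraries. After centring on the median, the largest absolute median difference over all genes was 0.10, in the serum comparison, beside 0.05 without centring. No paired analysis was possible because each group holds 1 array. Signals of Itga6, Itga7 and, in the lipid libraries, Itga8 lay inside the background range, which limits the precision of their differences. The same held for other genes named here. Among them were Col4a1, Col4a2, Lama4, Lmod1 and Ddr1 with fatty acid, and Itga9, Actg2, Myocd and Cd68 in every library.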

Other observations

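Of 15 measured matrix receptors and tetraspanins, 10 were lower and 2 higher than both controls with fatty acid, and 3 were lower and 7 higher with cholesterol, with 0 at 2-fold in either. Over all genes 39.7% were lower and 40.4% higher with fatty acid, 33.6% and 36.3% with cholesterol, and 2.01% and 0.806% at least 2-fold lower with fatty acid and with cholesterol. The largest differences with fatty acid were -0.74 for the syndecan Sdc1, -0.67 for the collagen receptor Ddr1 and -0.61 for Sdc3. Ddr1 was 1.12 higher in the cholesterol than in the fatty acid library (9.98 against 8.86), the only one of the 15 at 2-fold in that comparison. The dystroglycan gene Dag1 was 11.43 with cholesterol and 10.75 with fatty acid, against 10.90 and 10.99 in the controls.

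Smooth muscle and myofibroblast genes, among which Itga8 is often counted, were lower with fatty acid in 9 of 11 measured cases, 2 of them at 2-fold: the actin nucleator Lmod1 (-1.09) and the actin Actg2 (-1.04). Of all genes 39.7% were lower and 2.01% at 2-fold. The controls were 0.59 apart for Actg2. With cholesterol 5 of the 11 were lower and 3 higher (33.6% and 36.3% of all genes), with 0 at 2-fold (0.806% lower and 0.381% higher). Acta2 and Cnn1, of the same list, had no probe set annotated to them alone and were not measured. Tagln stayed between 13.51 and 13.63. Myocd, a coactivator of serum response factor, was 7.80 with cholesterol and 8.15 with fatty acid, against 8.48 and 9.02 in the controls.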
